A study of Mus musculus with 6 samples.

Results

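The immunity-related GTPases (IRGs) described here are 7 mouse genes, Irgm1, Irgm2, Igtp, Iigp1, Tgtp1, Tgtp2 and Ifi47. The rule was their symbol, with no threshold on values, and all 7 have a row among the 26264 gene symbols of each library. Bulk RNA sequencing covered 6 libraries of brown preadipocytes and of the adipocytes made from them. The cells were wild-type cells of the Bl6N strain, taken from brown fat and immortalized with SV40 large T antigen. The untreated cells, which the methods call vehicle-treated, and the cells given 5.5 nM FGF8 were kept 48 h under those conditions at subconfluence. They were harvested directly (day 0), at day 3 or at day 9, and all cells of days 3 and 9 went through the same adipogenic differentiation after the pretreatment. In the labels the last harvest carries a 7. It was taken as the day 9 of the study, which included 7 days on differentiation medium. The labels do not say what their 7 counts. The growth text attached to the samples speaks of primary white preadipocytes and of several FGFs, whereas titles, series design and methods describe immortalized brown cells, as the libraries are called here. Each treatment and day is 1 library of 1 immortalized line, so no difference within a day has a replicate check and none is given a p-value.

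IRG proteins are interferon-inducible GTPases that defend mouse cells against bacteria and parasites living inside vacuoles. They fall into 2 classes by the P-loop that binds the nucleotide. GMS proteins, with a methionine there, sit on the cell's own membranes and hold the effectors inactive, and GKS proteins, with the usual lysine, are the effectors that load onto the vacuole membrane and disrupt it. Interferons act through receptor-bound JAK kinases, and the transcription factors activated in this way bind gamma-activated sites (GAS) and interferon-stimulated response elements (ISRE) in front of target genes.

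The P-loop codon is shown because it sorts the members into regulators and effectors. A search of the canonical coding sequences of GENCODE M39 found ATG (methionine) in Irgm1, Irgm2 and Igtp, and AAG (lysine) in Iigp1, Tgtp1, Tgtp2 and Ifi47. The capitals mark that codon in 51 bases around it, which lie on chromosome 11 of GRCm39.
Irgm1, codon 73, chr11:48757570-48757620, minus strand: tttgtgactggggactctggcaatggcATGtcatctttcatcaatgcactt
Irgm2, codon 77, chr11:58110512-58110562, plus strand: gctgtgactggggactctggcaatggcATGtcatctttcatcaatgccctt
Igtp, codon 97, chr11:58097092-58097142, plus strand: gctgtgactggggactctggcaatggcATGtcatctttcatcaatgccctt
Tgtp1, codon 69, chr11:48878476-48878526, minus strand: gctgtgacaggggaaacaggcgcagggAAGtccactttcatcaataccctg
Tgtp2, codon 69, chr11:48950343-48950393, minus strand: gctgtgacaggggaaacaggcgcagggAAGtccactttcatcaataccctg
Ifi47, codon 87, chr11:48986466-48986516, plus strand: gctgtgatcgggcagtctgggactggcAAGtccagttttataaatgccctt
Irgm2 and Igtp carry the same bases in this stretch, and so do Tgtp1 and Tgtp2. Over the whole coding sequence Tgtp1 and Tgtp2 were 99.7% identical, with 4 mismatches in 1245 bases, whereas Irgm2 and Igtp were 66.9% identical.

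In the GENCODE M39 annotation, 6 members lie on chromosome 11 in 2 clusters. Irgm1 (chr11:48752795-48763164), Tgtp1 (chr11:48876154-48884999), Tgtp2 (chr11:48948021-48955033) and Ifi47 (chr11:48967412-48987813) span 235 kb. Igtp (chr11:58089840-58098417) and Irgm2 (chr11:58090444-58113615) overlap on the plus strand within 23.8 kb. Iigp1 lies on another chromosome. The canonical mRNAs have 2 exons, or 3 in Igtp. Which annotation and strand setting the counting used, and what became of reads that match more than 1 place, is not given in the sources used here. Of all 100-base windows of the canonical mRNAs, 84.8% of Tgtp1 and 80.4% of Tgtp2 also occur in another IRG transcript. The split of reads between these copies, and the level of both beside other genes, is thus uncertain. The share was 7.04% for Igtp and 3.19% for Irgm2, each with the other gene, and 0% for Irgm1, Iigp1 and Ifi47.

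The bases in front of the members are shown because interferon is the known inducer of this family. RefSeq promoters (GRCm38.p6, 250 bases before to 50 after the start) were found for 6 of 7 members, and GENCODE canonical starts (GRCm39) for 7. The ISRE core searched was GAAANNGAAA on both strands, and the GAS core was TTCNNNGAA, which reads alike on both. The ISRE core was found in 5 of the 6 RefSeq promoters, beside 3.44% of 32851 RefSeq promoters of that length. At GENCODE starts it was found in 6 of 7 members, beside 3.84% of 21769. The GAS core was found in 4 of 6 and 5 of 7 members, beside 8.3% and 8.82% of all promoters. The next lines give 30 bases per member in the gene's own direction, with the ISRE cores and the GAS cores next to them in capitals, at their GRCm39 position. RefSeq starts were used except for Ifi47, where the core was found at the GENCODE start.
Irgm1, chr11:48762255-48762284, minus strand: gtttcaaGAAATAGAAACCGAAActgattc
Irgm2, chr11:58105723-58105752, plus strand: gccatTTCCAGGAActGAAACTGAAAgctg
Igtp, chr11:58090332-58090361, plus strand: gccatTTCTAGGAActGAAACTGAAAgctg
Tgtp1, chr11:48883137-48883166, minus strand: gccatTTCCAGGAAtcGAAACTGAAAccta
Tgtp2, chr11:48955096-48955125, minus strand: gccatTTCCAGGAAtcGAAACCGAAAccta
Ifi47, chr11:48977749-48977778, plus strand: aagtcctTTTCTTTTTCCTGGAAatgttta
In Irgm2, Igtp, Tgtp1 and Tgtp2 the ISRE core began 11 bases after the start of the GAS core. Irgm1 had 2 overlapping ISRE cores and no GAS core, and Ifi47 had the ISRE core on the opposite strand, overlapping a GAS core. The joint spelling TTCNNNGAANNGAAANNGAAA, which was written down from these 4 members after their sequences had been seen, occurs in 5 of 32851 RefSeq promoters. The only one outside the members is that of Gm12185, another IRG family gene, which at its GENCODE canonical start shares the start of Tgtp1. The GENCODE canonical start of Irgm2 lies in the Igtp gene, so the match in front of it is the Igtp element, and the canonical start of Igtp lies further upstream. These matches describe letters and were not tested as binding sites.

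**Figure D1:**
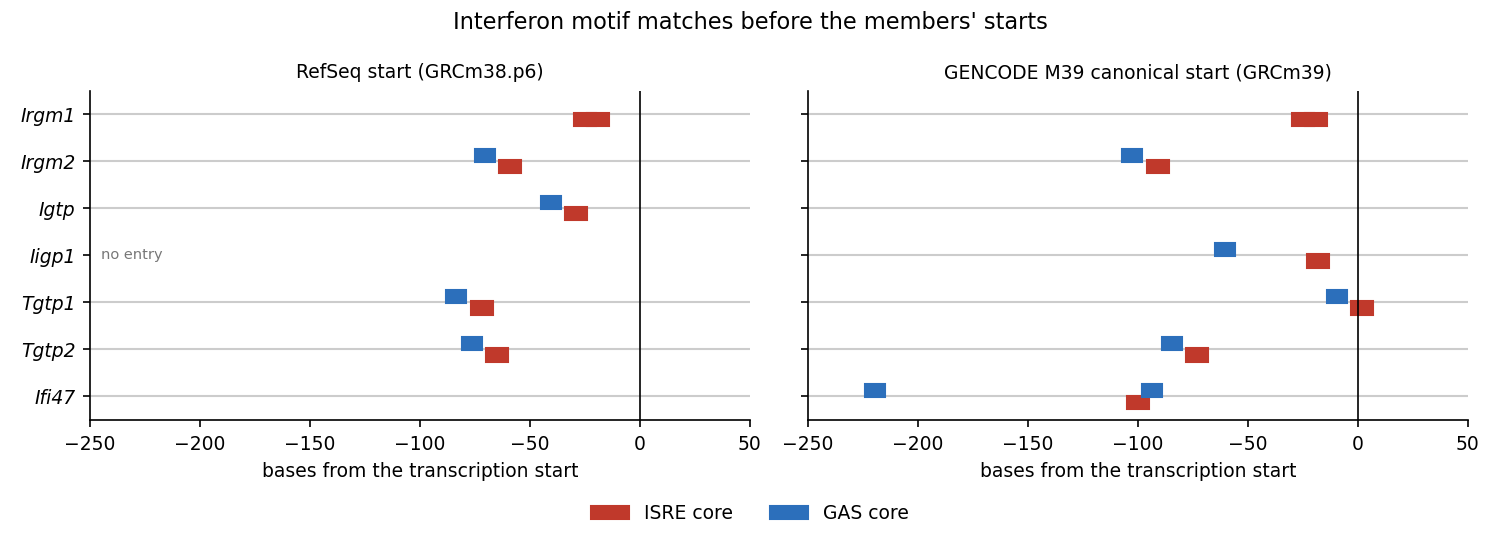
Matches of the ISRE core (red) and GAS core (blue) from 250 bases before to 50 bases after the transcription start of each member, in bases from the start, at RefSeq starts (left) and GENCODE canonical starts (right). The paired cores of Irgm2, Igtp, Tgtp1 and Tgtp2 keep the same spacing at RefSeq starts, and Iigp1 has no RefSeq entry.

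The libraries held between 16403254 and 38551551 counts. Levels below are counts divided by size factors (normalized counts), and log2 fold changes are differences of log2(normalized count + 1), while a fold given as a multiple is the ratio of normalized counts with no pseudocount. Their 95% intervals (Clopper-Pearson, on the split of the reads of both libraries) cover counting error only, since reads are not independent molecules. FGF8 feedback genes checked the treatment labels. Spry4, an inhibitor of FGF signalling, had 60.2 normalized counts untreated and 1060.0 after FGF8 at day 0, and 6 of 8 feedback genes were at least 2-fold higher at that day, as were 7.27% of all genes. Members made up 0.289% of all counts in untreated preadipocytes and 0.0416% after FGF8. The shares were 0.0889% and 0.0490% on day 3, then 0.0489% and 0.0179% on day 9.

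Directly after 48 h of FGF8, all 7 IRG mRNAs were lower than in untreated preadipocytes, by 4.37-fold (Irgm2) to 32.9-fold (Tgtp1). The 3 GMS regulators were 4.37 to 5.63 times lower and the 4 GKS effectors 15.7 to 32.9 times lower, so the classes did not overlap. All 7 of 7 were past 2-fold, beside 10.8% of 12657 genes, and their median log2 fold change was -3.97 beside 0.05 over all genes. Genes were counted where both libraries averaged 20 or more normalized counts. Tgtp1 passed through the untreated library alone (126 against 3.84 after FGF8), so it is lower by the rule itself. With bulk RNA, fewer cells with an mRNA and less of it per cell cannot be told apart.

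Among the regulators, Irgm1, which acts at the Golgi and at lysosomes, had 18688 normalized counts in untreated cells of day 0, 4579 on day 3 and 2350 on day 9, and 3556, 2772 and 1162 on the same days after FGF8. The untreated day 0 library stood above the other five, and the untreated day 9 level lay below 2 of the FGF8 levels. Irgm2, a Golgi-bound regulator, had 12513, 4983 and 2903 normalized counts in untreated cells at days 0, 3 and 9, and 2861, 3172 and 1228 after FGF8. Igtp, also called Irgm3 and bound to the endoplasmic reticulum and lipid droplets, had 10245, 2640 and 1785 normalized counts untreated and 1820.5, 1902 and 680.4 after FGF8. In all 3 regulators the FGF8 library was below the untreated library of its own day, while levels of different days overlapped between the treatments. The log2 fold change at day 0 was -2.39 (interval -2.45 to -2.33) in Irgm1, -2.13 (-2.20 to -2.06) in Irgm2 and -2.49 (-2.58 to -2.41) in Igtp.

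Among the effectors, Iigp1 (Irga6), the best studied of them, had 20989 normalized counts in untreated cells of day 0, 8029.6 on day 3 and 5299 on day 9, and 960.2, 4735 and 1769.8 after FGF8. Its FGF8 level was lowest at day 0 and highest at day 3, but no FGF8 library reached the lowest untreated one. Ifi47 (Irgd) had 6037, 1152 and 627.5 normalized counts untreated and 385, 348 and 120.3 after FGF8. Its 3 FGF8 libraries were all below its untreated libraries.

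Tgtp1 and Tgtp2 are the near-identical copies that encode Irgb6, one of the first effectors to load onto a vacuole. Tgtp2 had 1047 normalized counts in untreated cells of day 0, 588 on day 3 and 336.5 on day 9, and 46.1, 110.9 and 48.8 after FGF8. Tgtp1 had 86, 47 and 96 raw counts untreated and 3, 41 and 14 after FGF8, which is 126, 59.8 and 68.1 against 3.84, 28.8 and 11.4 normalized counts. For both copies the untreated libraries were all above the FGF8 libraries. Tgtp1 took between 7.69% and 20.6% of the counts of the pair. The log2 fold change at day 0 was -4.45 (-4.56 to -4.34) in Iigp1, -3.97 (-4.14 to -3.80) in Ifi47, -4.48 (-5.03 to -4.02) in Tgtp2 and -4.72 (-7.35 to -3.44) in Tgtp1. The interval of Tgtp1 rests on 3 counts, and with a pseudocount of 5 its log2 fold change at day 0 was -3.89. In all, 4 of 7 members, the 4 effectors, had every FGF8 library below every untreated library, a pattern found in 5.36% of 13256 genes.

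**Figure D2:**
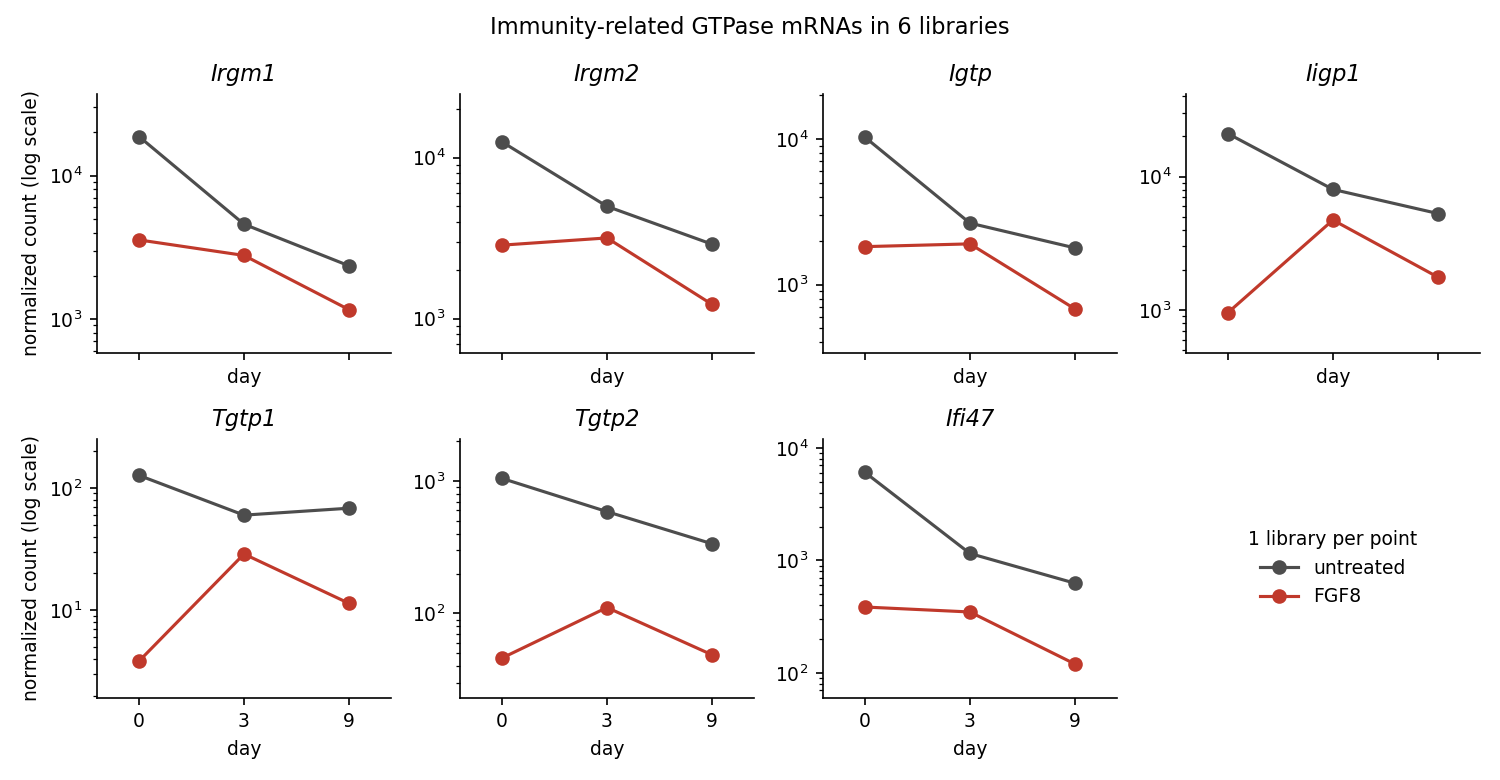
Normalized counts (log scale, own range per panel) of the 7 members at days 0, 3 and 9 (evenly spaced), 1 library per point, untreated in grey and FGF8 in red. FGF8 lies below untreated at each day in each panel, and the red points of Iigp1 (960.2 and 4735), Tgtp1 and Tgtp2 stand higher at day 3 than at day 0.

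At day 3, after the FGF8 had been withdrawn and differentiation begun, the gap was smaller in all members, and it differed between them. Only Tgtp2 (-2.40), Ifi47 (-1.72) and Tgtp1 (-1.03) were at least 2-fold lower, which is 3 of 7 beside 12.1% of genes. Tgtp1 had -0.94 with a pseudocount of 5, which left 2 members past 2-fold. Irgm1 (-0.72), Irgm2 (-0.65), Igtp (-0.47) and Iigp1 (-0.76) were 1.39 to 1.70 times lower. The median log2 fold change of the members was -0.76, beside 0.08 over all genes.

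At day 9, all 7 of 7 were again at least 2-fold lower, beside 8.74% of genes. With TMM factors 6 were, Irgm1 having -0.98. As at day 0, Tgtp1 passed the count filter through the untreated library alone (68.1 normalized counts against 11.4 after FGF8). The log2 fold changes were -1.02 in Irgm1, -1.24 in Irgm2, -1.39 in Igtp and -1.58 in Iigp1. They were -2.37 in Ifi47, -2.48 in Tgtp1 and -2.76 in Tgtp2. The median was -1.58, beside 0.08 over all genes. All 21 counting intervals over members and days lay below 0, and no member was 2-fold higher at any day, where 7.27%, 3.8% and 1.12% of genes were at days 0, 3 and 9. The day 9 gap of Iigp1 was 2.99-fold, against 21.9-fold at day 0, and that of Irgm1 2.02-fold against 5.26-fold.

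**Figure D3:**
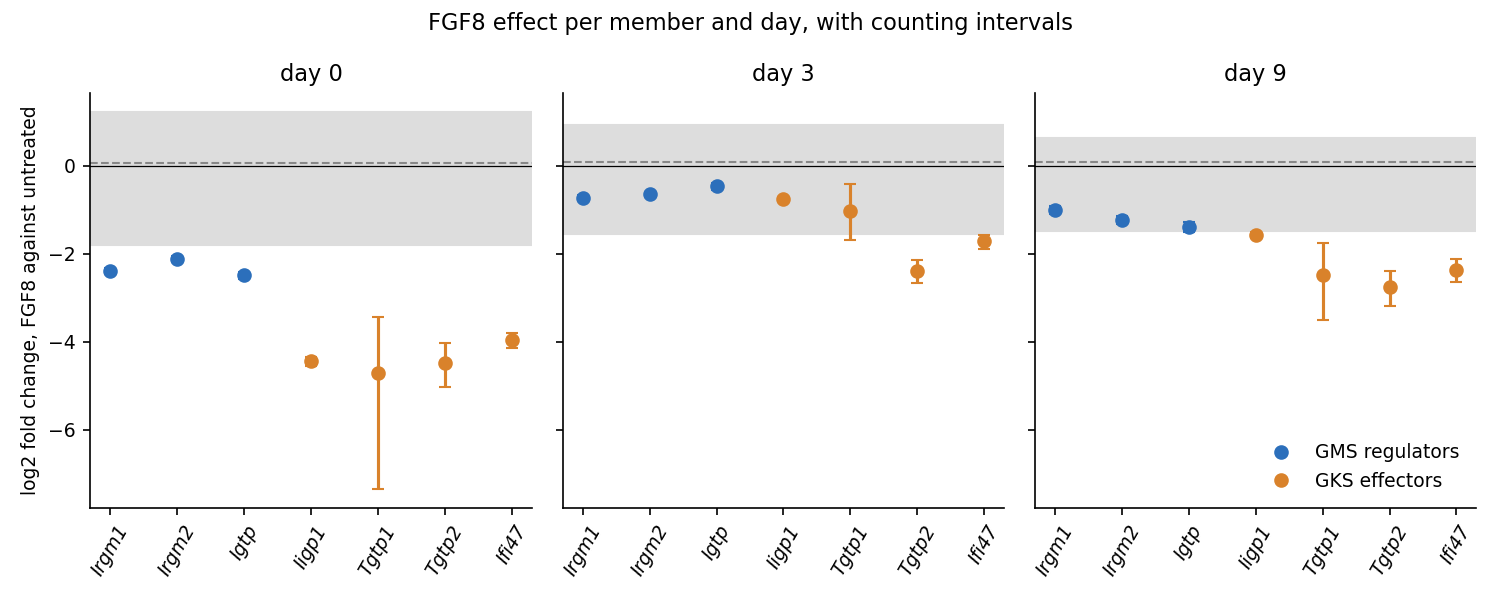
Log2 fold change of FGF8 against untreated for each member at days 0, 3 and 9, with 95% counting intervals (bars). The grey band spans the 5th to 95th percentile of all genes and the dashed line their median. At day 0 every GKS effector (orange) is lower than every GMS regulator (blue), and at day 3 Iigp1 (-0.76) lies next to the regulators.

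A common FGF8 effect over days 0, 3 and 9 was fitted to all 6 libraries with edgeR's quasi-likelihood test, day being a term and 2 residual degrees of freedom being left. The days thus stand in for replicates, and a gap that changes in size from day to day adds to the error. The test called 0 of 7 members with Benjamini-Hochberg adjustment, beside 1.25% of 14569 genes called lower, although all 7 were lower at an unadjusted p under 0.05, beside 12.9% of genes. DESeq2's Wald test called all 7 lower, beside 8.85% of the genes to which it gave an adjusted p. The shared log2 fold change was -3.20 ± 0.47 (SE) in Tgtp2 (edgeR adjusted p = 0.0611) and -2.70 ± 0.47 in Ifi47 (edgeR adjusted p = 0.0759). It was -1.36 ± 0.30 in Irgm2, -1.39 ± 0.36 in Irgm1 and -1.47 ± 0.40 in Igtp, with edgeR adjusted p = 0.109, 0.131 and 0.137. Tgtp1 (-2.60 ± 0.76) and Iigp1 (-2.19 ± 0.79) had edgeR adjusted p = 0.152 and 0.193. Without the day 0 libraries, which leaves 4 libraries and 1 residual degree of freedom, edgeR called all 7 members lower, beside 11.6% of genes. The fitted log2 differences were then smaller, from -0.90 in Irgm1, -0.96 in Igtp, -0.97 in Irgm2 and -1.20 in Iigp1 to -1.78 in Tgtp1, -2.07 in Ifi47 and -2.61 in Tgtp2.

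Over differentiation, the members' levels became lower in untreated cells. From day 0 to day 9 the untreated difference on the log2 scale was -3.26 in Ifi47, -2.99 in Irgm1, -2.52 in Igtp and -2.11 in Irgm2. It was -1.99 in Iigp1, -1.64 in Tgtp2 and -0.88 in Tgtp1. After FGF8 the same step was -1.67, -1.61, -1.42 and -1.22 in Ifi47, Irgm1, Igtp and Irgm2, but 0.88 (0.76 to 1.00) in Iigp1, 0.08 (-0.54 to 0.72) in Tgtp2 and 1.36 (-0.27 to 4.01) in Tgtp1. The intervals of Tgtp1 and Tgtp2 in FGF8 cells include 0.

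The steps between harvests were uneven. From day 0 to day 3 the untreated log2 differences ran from -2.39 (Ifi47) to -0.83 (Tgtp2), all below 0. After FGF8 the same step was 2.30 in Iigp1, 2.62 in Tgtp1 and 1.25 in Tgtp2, against 0.15 in Irgm2, 0.06 in Igtp, -0.15 in Ifi47 and -0.36 in Irgm1. From day 3 to day 9 all 7 FGF8 values were lower, with differences of -1.17 (Tgtp2) to -1.53 (Ifi47) on the log2 scale. In untreated cells 6 of 7 were lower in that step, and Tgtp1 had 0.19 (-0.33 to 0.72). The day steps of a treatment share libraries, as does each pair of steps with the FGF8 differences above.

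With treatment as a term, edgeR's quasi-likelihood test called 4 of 7 members lower at day 9 than at day 0, beside 24.8% of genes called lower. Irgm1 changed by -2.34 ± 0.45 (SE; edgeR adjusted p = 0.0121), Ifi47 by -2.58 ± 0.57 (edgeR adjusted p = 0.0172), Irgm2 by -1.68 ± 0.37 (edgeR adjusted p = 0.0173) and Igtp by -2.02 ± 0.49 (edgeR adjusted p = 0.0219) on the log2 scale. Iigp1 (-0.89 ± 0.92), Tgtp2 (-0.94 ± 0.54) and Tgtp1 (-0.27 ± 0.88), whose FGF8 level at day 9 was not below that at day 0, were not called, with edgeR adjusted p = 0.445, 0.197 and 0.807. For day 3 against day 0, edgeR called 0 of 7 members, beside 19.8% of genes called lower. In that step 1 member (Irgm1) was lower at an unadjusted p under 0.05, beside 25.1% of genes, and DESeq2 called 2 lower (Irgm1, Ifi47), beside 16.9%. For day 9 against day 3, edgeR called 0 of 7, beside 0.00686% of genes called lower. Here 2 members (Irgm1, Irgm2) were lower at an unadjusted p under 0.05, beside 10.3% of genes, and DESeq2 called 0, beside 3.22%.

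In all, 2 groups of profiles were visible over the 6 libraries, which share day and treatment. On the log2 scale Irgm1, Irgm2, Igtp and Ifi47 correlated pairwise with Pearson's r of 0.959 to 0.993, and Iigp1, Tgtp1 and Tgtp2 with 0.941 to 0.966. Between the groups r was 0.571 to 0.894. Ifi47, an effector by its P-loop, thus ran with the regulators over the libraries, although its FGF8 differences at days 3 and 9 lay within the range of the other effectors.

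Levels of different genes were compared per kb of canonical mRNA, which assumes that this is the counted model. Irgm1 was the most abundant member at day 0 in both treatments, with 32.1% of the summed level per kb untreated and 43.9% after FGF8. Iigp1 was first at days 3 and 9 in both treatments, with 30.95% to 34.9%. Ifi47, Tgtp2 and Tgtp1 ranked 5, 6 and 7 in every library, and Tgtp1 never passed 0.473%. Reads that match more than 1 IRG transcript may be missing from the counts of Tgtp1 and Tgtp2, and Gm12185 overlaps Tgtp1 on the same strand. The ranks of both copies and the effector share below may therefore be too low. The regulators together made up 61.1%, 57.4% and 54.9% of the summed level per kb in untreated cells at days 0, 3 and 9. After FGF8 their share was 85.6% at day 0, when Iigp1 held 8.14%, and 62.9% and 64.2% at days 3 and 9. The effectors took the remaining 14.4% in FGF8 preadipocytes, against 38.9% in untreated ones.

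**Figure D4:**
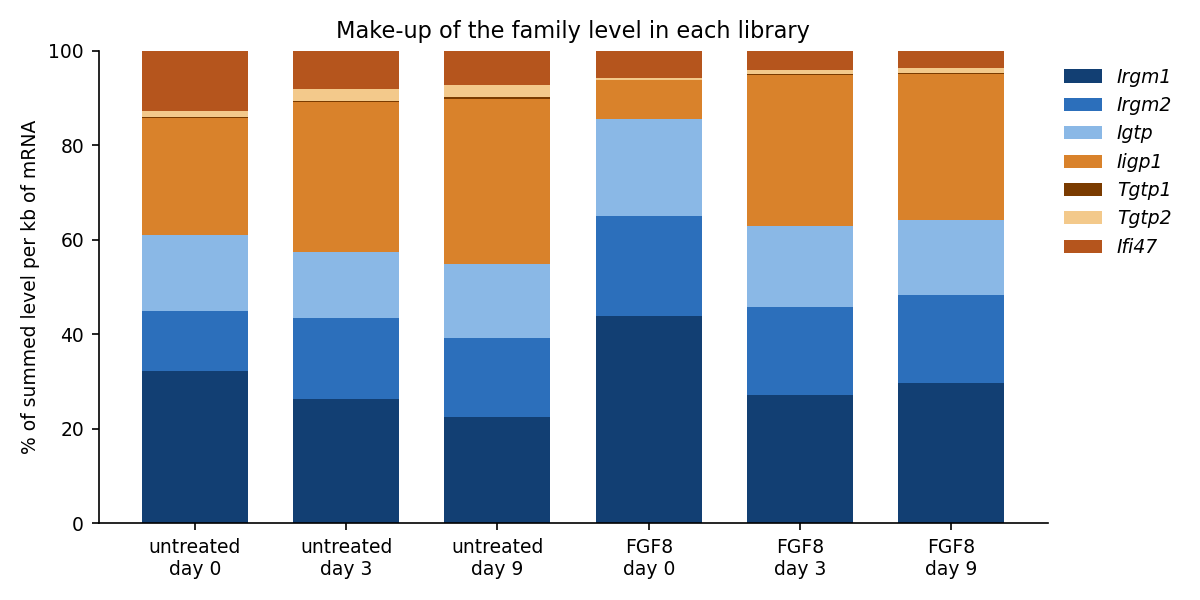
Share of each member in the summed level per kb of canonical mRNA (%), 1 bar per library, regulators in blue and effectors in orange and brown. The blue part reaches 85.6% in the FGF8 day 0 library and lies between 54.9% and 64.2% in the other five.

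Other genes of the pathway were taken from fixed lists. Of 14 further IRG symbols, 9 were listed, and all whose 2 libraries of a day averaged 20 or more normalized counts were at least 2-fold lower after FGF8, 7 of 7 at day 0, 5 of 5 at day 3 and 5 of 5 at day 9. For these and the lists below, the share over all genes was 10.8%, 12.1% and 8.74%. A gene that passes through the untreated library alone is lower after FGF8 by the rule itself. At day 0 these were Gm5431 (1.28 after FGF8, 80.8 untreated), Gm12185 (8.96, 198), Gm4841 (10.2, 170), F830016B08Rik (10.2, 256) and 9930111J21Rik1 (10.2, 30.85). Later they were Gm12185 at day 3 and Gm12185 and Gm4841 at day 9. Gm12250, named Irgb10 and protein-coding in RefSeq but a lncRNA in GENCODE M39, was identified by its symbol alone. It had 7244, 837.5 and 317 normalized counts in the untreated course and 185.6, 367 and 86.2 in the FGF8 course. Guanylate-binding proteins, the larger GTPases that act on the same vacuoles, were 2-fold lower in 11 of 11, 4 of 8 and 3 of 8 genes that passed at days 0, 3 and 9. Gbp4, Gbp8, Gbp10 and Gbp11 passed at day 0 through the untreated library, with 10.2, 10.2, 0 and 2.56 normalized counts after FGF8. Gbp3 had log2 fold changes of -3.13, 0.13 and -0.89, so at day 3 it was above the untreated level, unlike the 7 members.

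Upstream of the members, the interferon genes themselves were close to 0. Ifnb1 had 28 counts untreated and 0 after FGF8 at day 0, at least 10.7-fold higher in untreated cells by the floor of 3 counts per library, and 10 counts or fewer in each of the other libraries. Ifng had 3 counts in untreated day 0 cells and 0 elsewhere. None of 7 receptor and JAK genes was 2-fold lower at day 0, 2 were at day 3 (Ifnar2, Jak1) and 1 at day 9 (Ifnar2). Interferon transcription factors were 2-fold lower in 5 of 8, 2 of 8 and 3 of 9 genes that passed. Batf2 passed at day 9 through the untreated library, with 53.2 normalized counts against 9.76 after FGF8. Stat2 had log2 fold changes of -2.16, -0.89 and -0.97, and Irf7, which amplifies interferon responses, -2.71, -1.30 and -2.01. Irf1, an early mediator of interferon gamma, had -0.62, -0.50 and -0.07.

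Downstream, the ATG8 conjugation genes, which direct IRG proteins to their target membranes, had medians of 0.20, 0.05 and 0.04 at days 0, 3 and 9. Of 12 genes 0, 1 (Gabarapl1, -1.03) and 0 were 2-fold lower. Among 8 ubiquitin and adaptor genes of the vacuole, Rnf213 (-2.14) and Trim21 (-1.54) were 2-fold lower at day 0 and none later. Of 7 genes listed as negative regulators of interferon signalling, 3, 1 and 4 were 2-fold lower. Usp18, which blocks the type I receptor, had -1.51, -0.44 and -1.01. Isg15, whose role as such a regulator in these cells was not tested, had -2.28, -0.71 and -1.49. In edgeR's shared test, 1 guanylate-binding protein (Gbp2b) and 1 receptor gene (Ifnar2) were called lower with Benjamini-Hochberg adjustment (adjusted p = 0.0441 and 0.0499), beside 1.25% of genes. No gene of the other IRG, transcription factor, ATG8 or vacuole lists was called. Of these lists 7 of 7, 8 of 10, 1 of 12 and 2 of 8 tested genes had an unadjusted edgeR p under 0.05, beside 3389 of 14569 genes. Among the marker lists, the same test called 3 of 7 preadipocyte markers (Dlk1, Pdgfrb, Pdgfra) and 1 of 3 endothelial markers (Tek) lower. Gbp2b rests on the day 0 pair, since it had at most 1 count at days 3 and 9.

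**Figure D5:**
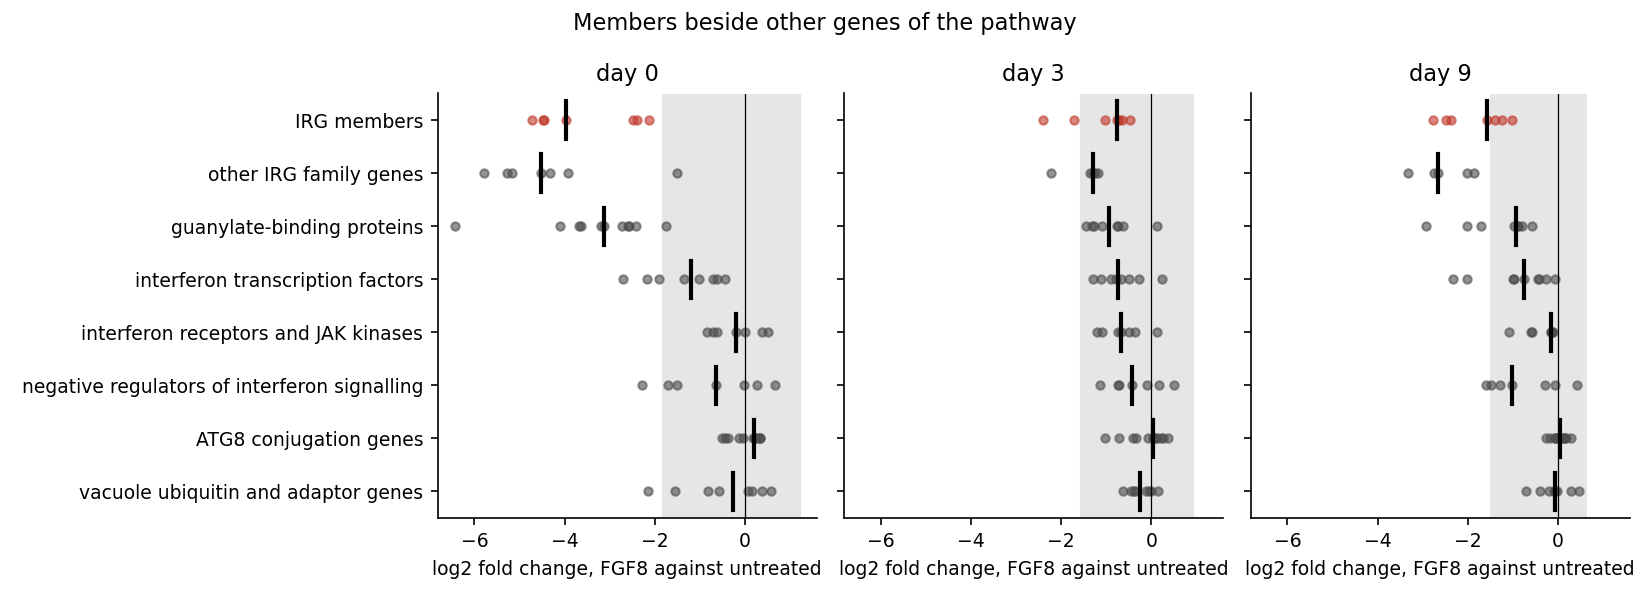
Log2 fold change of FGF8 against untreated at days 0, 3 and 9 for genes whose 2 libraries average 20 or more normalized counts, with the 7 members in red, other lists in grey, list medians as black bars and the 5th to 95th percentile of all genes as a grey band. Of the lists drawn, the IRG and guanylate-binding protein lists lie lowest at day 0 (medians -3.97, -4.51 and -3.13), while the ATG8 genes stay around 0.

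Markers of other cell types were counted in the same libraries. Of 15 macrophage and leukocyte markers, 3 passed (Cd68, Csf1r, Cd14). Csf1r had log2 fold changes of -2.93, -2.32 and -1.94 at days 0, 3 and 9, passing through the untreated libraries. Cd14 had -0.57, -1.50 and -1.50, and Cd68 -0.14, 0.16 and 0.01. Lyz2 had 22, 5 and 13 counts untreated and 1, 1 and 1 after FGF8, and Mrc1 5, 0 and 4 against 13, 1 and 0. Adgre1, C1qa and C1qb were at 0 in all 6 libraries, and Ptprc had at most 1 count. The summed level of the 15 markers ran from 244 to 316 normalized counts untreated and from 143 to 193 after FGF8, below the untreated range. Endothelial markers summed to 1630.4 normalized counts in untreated preadipocytes and 71.7 after FGF8, and to 199.5 to 212.5 against 34.4 to 35.8 later. Most of the first value was Kdr (1288 against 7.68), whereas Pecam1 had 1 and 10 counts and Cdh5 3 and 7. Tek, a receptor of endothelial cells, had 326.1, 64.9 and 160.4 normalized counts untreated and 42.2, 9.83 and 25.2 after FGF8, with log2 fold changes of -2.92, -2.61 and -2.62. Their part in the members' difference was not tested.

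The labelled identity was checked in the same way. Of 8 preadipocyte markers, 7 were present at all days, and Dpp4 was at 0 counts in both day 3 libraries and in the FGF8 library of day 9. They were at least 2-fold lower after FGF8 in 6 of 8, 7 of 7 and 7 of 7 genes that passed, with Pdgfra at -2.82, -1.79 and -1.84. Dpp4 passed at day 0 through the untreated library, with 160.1 normalized counts against 5.12 after FGF8. Adipocyte markers summed to 8839.6, 370303 and 502016 normalized counts in the untreated course and to 2491, 639621 and 580314 in the FGF8 course. Adipocyte markers were thus abundant in both treatments from day 3. At day 3 all 7 of them that passed were higher after FGF8, with a median log2 fold change of 0.69. Of these, 1 was at least 2-fold higher, beside 3.8% of genes. The brown adipocyte markers Cidea (3.61), Ppargc1a (1.16), Elovl3 (0.96), Prdm16 (0.53) and Cox8b (0.20) were also higher after FGF8 at day 3. At day 9 their log2 fold changes were 0.69, 0.43, -0.39, 0.37 and -0.51 in the same order. The part of these shifts in the members' levels was not tested.

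The 8 genes other than members whose profile over the 6 libraries was most like the mean profile of the members were Kdr (r = 0.994), Ifih1 (0.993), Opcml (0.993), Ifit3 (0.993), Bst2 (0.991), Mx2 (0.990), Abi3bp (0.989) and Col6a5 (0.988), out of 13256 genes. Ifih1, Ifit3, Bst2 and Mx2 are interferon-stimulated genes. Ifit3 had 27875, 5740.0 and 3387 normalized counts in the untreated course and 1649, 2091 and 849 in the FGF8 course. The mean profile blends both groups of profiles described above, and the members' own r with it ran from 0.855 (Tgtp1) to 0.980 (Ifi47). Kdr, Opcml and Col6a5 averaged 20 normalized counts only through the untreated libraries, with at most 19.65, 10.5 and 13.3 after FGF8. The libraries share treatment and day, so these correlations are a description.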

How the data were processed

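RNA of 6 libraries was sequenced as paired reads from stranded mRNA libraries. The deposited values are raw counts per gene, which the authors made with featureCounts after trimming (TrimGalore) and alignment by HISAT2 to GRCm39. Tool versions, the annotation and the strand setting of the counting are not given in the sources used here.

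Groups came from the sample titles. The members and all gene lists were chosen with earlier results of these data known. Named genes are the members, genes of the fixed lists with a defining role or a large change, and the 8 genes with the highest Pearson correlation with the members' mean standardized profile.

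Counts were divided by DESeq2 (1.42.0) median-of-ratios size factors. Fold changes used a pseudocount of 1, and genes were counted past 2-fold where both libraries averaged 20 or more normalized counts. Intervals are 95% Clopper-Pearson. Values are tightest for abundant members and weak for Tgtp1. Tests used edgeR (4.0.16) glmQLFit and glmQLFTest with TMM, filterByExpr, treatment and day terms and Benjamini-Hochberg adjustment at 0.05. The edgeR step was run on simulated counts with a treatment effect that was equal on all days. The simulation does not cover gaps that change from day to day, as those of the members did. With 1 library per treatment and day, no test within a day was made. Alternatives were TMM, total counts, size factors of the pair, RLE factors, pseudocounts of 0.5 and 5, 1.5-fold and 4-fold rules, no filter, DESeq2's Wald test, a fit without the other term, leaving out each day, and the sum of Tgtp1 and Tgtp2. Gene coordinates and transcripts came from GENCODE M39, and promoters from RefSeq. Scripts ran in Python 3.11.15 with pandas 2.3.3 and scipy 1.17.1, and in R 4.3.3. Values of 1 listed gene are not reported here.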

Additional observations from a re-analysis of the deposited data

Results flagged for a closer look

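The sign of the difference between days was opposite in the untreated and the FGF8 course for some members, each course being 1 library per day, and the difference between the courses was not tested. From day 0 to day 3, the difference of Irgm2 was -1.33 on the log2 scale in untreated cells and 0.15 in FGF8 cells. That of Iigp1 was -1.39 and 2.30, that of Tgtp1 -1.07 and 2.62, and that of Tgtp2 -0.83 and 1.25 in the same step. From day 0 to day 9, that of Iigp1 was -1.99 in untreated and 0.88 in FGF8 cells. The FGF8 day 0 library, with 750 counts of Iigp1 and 3 of Tgtp1, is the starting point of each FGF8 value.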

How the results depend on the processing

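All 105 alternative values of members by day (other size factors and pseudocounts) lay below 0, with 101 inside and 4 outside the counting interval. A pseudocount added to both libraries cannot change the sign, so for those alternatives the sign was fixed beforehand. At day 3, 6 members passed a 1.5-fold rule and 1 a 4-fold rule, and 3 passed 4-fold at day 9. Past 2-fold, 6 members were lower at day 9 with TMM and 2 at day 3 with a pseudocount of 5. The day 3 median was -0.87 with total counts. The shared FGF8 test called 2 members without a filter, 7 with DESeq2, 7 without day 0, and 0 without day 3 or day 9, or without the day term. Over all genes it called 185 by edgeR, 110 with RLE factors, 419 without a filter, 1692 with DESeq2, 2230 without day 0, and 0 without day 3, day 9 or the day term. DESeq2 called 2 members for day 3 against day 0. Without the treatment term, 0 members were called for day 9 against day 0, where all genes called were 5733 against 7872 with that term, and for day 3 against day 0 the sign turned in Iigp1 (-0.72), Tgtp1 (-0.50) and Tgtp2 (-0.58). All genes called for day 9 against day 3 were 10 by edgeR, 1319 by DESeq2, 268 without a filter and 3 without the treatment term, and for day 3 against day 0 they were 6707 and, without the treatment term, 4436. The causes were not tested. The day term already pairs the treatments by day in the shared test, and the labels give no replicate numbers for another block. Tgtp1 rests on the fewest counts, with 3 in the FGF8 day 0 library, and 84.8% of its 100-base windows also occur in another IRG transcript.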
